A study of Mus musculus with 2744 samples.

Results

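Zfp42-high Day 2 cells are compared here with Zfp42-zero Day 2 cells. Zfp42, also called Rex1, encodes a zinc finger protein that is switched off as mouse embryonic stem cells leave the naive state. A cell counted as Zfp42-high when it had at least 100 CPM of Zfp42, where CPM is the gene's reads divided by all reads of that cell on gene entries, times 1000000. A cell counted as Zfp42-zero when it had 0 Zfp42 reads. Only cells with at least 500 genes with a read were used. This kept 93.97% of the Day 2 wells. Of the kept Day 2 cells 25% were Zfp42-high (90 cells on main and 19 on pilot plates) and 42.9% were Zfp42-zero, and both classes made up 12.1% of the 2448 cells kept among 2744 in the series. The other 140 Day 2 cells (32.1%) had at least 1 Zfp42 read but under 100 CPM.

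The study followed the differentiation of mouse embryonic stem cells into motor neurons by single-cell RNA sequencing, with cells taken each day from Day 2 to Day 6 in a main and a pilot experiment, which its design text calls biological replicates. Embryoid bodies were dissociated with papain, cells were sorted singly into plates, and libraries were made by a modified CEL-seq, which reads the 3′ ends of polyadenylated RNA. Day 2 was covered by 4 plates of the main experiment and 2 plates of the pilot experiment. The labels used here give no strain, genotype or added agent for the Day 2 cells, and nothing in them says that the plates of an experiment came from separate cultures. P-values over plates therefore measure the spread between plates, part of which is technical, and would be too small as statements about cultures.

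Naive pluripotent cells resemble the epiblast before implantation and depend on transcription factors such as Esrrb, Klf2, Klf4, Tfcp2l1 and Nanog. Primed cells resemble the epiblast after implantation and express Dnmt3b, Pou3f1, Otx2 and Fgf5. Pou5f1 and Sox2 are used in both states, and Zfp42 is a classical marker of the naive one. In mouse stem cell cultures Zfp42 is known to vary from cell to cell.

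Zfp42 was what the classes were chosen on, and its values are a description. The Zfp42-high cells had a median of 259.4 CPM and a maximum of 4286 CPM, with a median of 51 reads. The 5 cells just inside the threshold had 100.3 to 107.5 CPM, and the 5 just outside had 91.8 to 97.3 CPM. The cells in between had a median of 25.3 CPM, from a median of 4.5 reads, and 74 of the 140 had 1 to 5 reads. By plate there were 23, 23, 16 and 28 Zfp42-high cells in main plates 1 to 4 and 10 and 9 in pilot plates 1 and 2. The Zfp42-zero cells numbered 28, 52, 26 and 29 in the same main plates and 25 and 27 in the pilot plates. In-between cells made up 37.7% of the kept Day 2 cells of the main experiment and 5.33% (4 of 75) of those of the pilot experiment.

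The number of genes detected was slightly higher in the Zfp42-high cells of most plates. Its median per plate lay between 1643.5 and 5934.5 in Zfp42-high cells and between 1811 and 4607 in Zfp42-zero cells, higher in the Zfp42-high cells of 5 of 6 plates. The mean log2 ratio was 0.15 ± 0.17 (SD, n = 6 plates), with p = 0.09375 in an exact two-sided sign-flip permutation test, whose smallest possible p is 0.03125. With means over cells in place of medians the ratio was 0.21, higher in 6 of 6 plates (exact permutation p = 0.03125, the smallest possible). The share of reads on spike-in RNA was lower in the Zfp42-high cells of 5 of 6 plates, with a mean log2 ratio of -0.28 ± 0.33 (SD, n = 6 plates, exact permutation p = 0.125). To hold depth alike, each Zfp42-high cell was paired with a Zfp42-zero cell of the same plate whose log2 number of genes lay within 0.25, which gave 22, 23, 16 and 24 pairs in main plates 1 to 4 and 10 and 9 in pilot plates 1 and 2. In these pairs the log2 ratio of genes detected was 0.02 ± 0.08 (SD, n = 6 plates, exact permutation p = 0.6875). Reads per cell remained slightly higher in the Zfp42-high cells of 6 of 6 plates, by a log2 ratio of 0.11 ± 0.10 (SD, n = 6 plates, exact permutation p = 0.03125, the smallest possible); the part of this in the gene values was not tested. All values below come from the sums of these pairs within a plate unless stated, with 2054746 to 10709661 reads per Zfp42-high sum and 1742830 to 8248381 per Zfp42-zero sum.

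No gene passed the test across all genes, so every difference below is given as values and directions, and a p that missed the threshold does not show that a gene was alike in both classes. edgeR's quasi-likelihood test with plate as a term called 0 of 9023 genes at an adjusted p under 0.05, and 97 genes had an unadjusted p under 0.05. Of these, 62 (0.687% of those tested) were higher and 35 (0.388%) lower in Zfp42-high cells. Both shares together stay below the share of 0.05 that evenly spread p-values would give. The unadjusted edgeR p-values quoted below are therefore descriptions and single out no gene. DESeq2 called 8 genes on the same sums, 5 higher (0.0641% of 7798 with an adjusted p) and 3 lower (0.0385%). A sum weights each cell by its reads, and the common dispersion between plates was 1.17, so that a few cells can set the sum of a rarely detected gene. A fit that weights cells equally (limma on the mean log2(CPM + 10) over cells, chosen after the values were seen) called 2 genes (0.0199%), both higher in Zfp42-high cells, Klf2 and Mreg, each at an adjusted p of 0.0492. In that fit 740 of 10057 genes had an unadjusted p under 0.05, 4.43% of those tested higher and 2.92% lower. Directions across plates are therefore read against all genes: among the 15853 genes with a read, 0.978% were higher and 0.889% lower in the Zfp42-high sums of 6 of 6 plates, and among the 5278 genes at a mean of at least 20 CPM these shares were 2.16% and 1.93%. The difference between the classes was also compared between the experiments: a class by experiment term in edgeR had an adjusted p under 0.05 in 43 of 9023 genes (0.477%), none of them a marker or list member, and the smallest adjusted p of a marker was 0.0623 (Klf4). For this term 2261 genes had an unadjusted p under 0.05, against 97 for the class itself, and 2172 of the tested genes had 0 reads in both pilot sums of 1 class.

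Among genes of the naive state, more were higher than lower in Zfp42-high sums across plates. Of the 20 naive genes looked at beside Zfp42, 4 were higher in the Zfp42-high sums of 6 of 6 plates and 0 were lower in all 6. In at least 5 of 6 plates 8 were higher and 0 lower, against 12.8% and 11.8% of genes at a mean of at least 20 CPM and 6.43% and 6.13% of all genes with a read. Their summed level was 866 to 1539 CPM (median 1062) in Zfp42-high cells, against 208.4 to 919 CPM (median 478.4) in Zfp42-zero cells, higher in 6 of 6 plates. The median log2 difference of the 19 tested members was 0.89, against 0.00 over all tested genes. None passed the edgeR test.

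Klf2, a Krüppel-like transcription factor of the naive network (chr8:72319033-72321656 on GRCm38), was the member whose levels differed most evenly. It had 317.1 to 746 CPM (median 487.1) in the Zfp42-high sums, against 59.01 to 486.1 CPM (median 219.7) in the Zfp42-zero sums. The Zfp42-high sum was the higher one in every plate, although the 2 ranges overlap. The log2 difference was 1.43 ± 0.38 (SE) in edgeR, with an unadjusted p of 0.00376 and an adjusted p of 0.9997. Leaving out 1 plate at a time gave 1.11 to 1.65. Within the experiments Klf2 had 412.4 CPM in Zfp42-high cells and 152.1 CPM in Zfp42-zero cells of the main one, and 706 CPM and 367.98 CPM in those of the pilot one. It reached 100 CPM in 72 (69.2%) of the matched Zfp42-high cells, against 35 (33.7%) of the matched Zfp42-zero cells. The equal-weight fit gave 2.00 ± 0.32 (SE).

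Tcl1, an Akt coactivator of naive cells, had 9.78 to 92.8 CPM (median 34.04) in Zfp42-high sums, against 0 to 9.18 CPM (median 5.52) in Zfp42-zero sums. Tfcp2l1, a transcription factor of the naive network, had 19.4 to 34.2 CPM (median 25.96) in Zfp42-high sums, against 0 to 18.6 CPM (median 1.46) in Zfp42-zero sums. For both genes the ranges did not overlap. The share of all genes with ranges apart is not given, so this is a description, here and for the genes below. Few cells carried either gene: Tcl1 reached 100 CPM in 17 Zfp42-high cells (16.3%) and 4 Zfp42-zero cells (3.85%). Tfcp2l1 did so in 8 Zfp42-high and 4 Zfp42-zero cells. Their log2 differences were 3.27 ± 1.38 and 4.92 ± 2.13 (SE, edgeR, unadjusted p = 0.0403 and 0.0443, adjusted p = 0.9997 for each). Dppa3, a maternal factor that protects DNA methylation, was also higher in all 6 plates, at 0.343 to 118.3 CPM (median 55.5) in Zfp42-high sums, against 0.15 to 47.2 CPM (median 21.8) in Zfp42-zero sums.

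Esrrb, an orphan nuclear receptor of the naive network (chr12:86361117-86521628), had 1.99 to 528.6 CPM (median 73.6) in Zfp42-high sums, against 3.76 to 271.7 CPM (median 10.4) in Zfp42-zero sums. In the main experiment the 4 Zfp42-high sums were all above the 4 Zfp42-zero sums, and the pilot plates went opposite ways. The log2 difference was 2.68 ± 1.48 (SE, edgeR, adjusted p = 0.9997), and it was -1.09 when all cells entered with genes detected as a covariate in place of matching. Over matched cells Esrrb reached 100 CPM in 25 Zfp42-high cells (24.04%) and in 6 Zfp42-zero cells (5.77%). Klf5, another Krüppel-like factor, had 2.79 to 78.5 CPM (median 53.1) in Zfp42-high sums, against 0 to 7.73 CPM (median 5.08) in Zfp42-zero sums, and was higher in 5 of 6 plates.

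The 2 other defining naive markers gave no such separation. Klf4 had 0 to 14.2 CPM (median 7.67) in Zfp42-high sums, against 0 to 25.8 CPM (median 3.89) in Zfp42-zero sums, and it reached 100 CPM in 3 Zfp42-high and 1 Zfp42-zero cell. Its log2 difference turned to -0.46 with all cells and genes detected as a covariate. Nanog, a homeobox factor of the pluripotency network, had 0.611 to 5.98 CPM (median 3.09) in Zfp42-high sums, against 1.05 to 7.94 CPM (median 3.74) in Zfp42-zero sums, and no matched cell of either class reached 100 CPM. Both genes were low in both classes, and neither they nor any other marker passed the edgeR test. A name of naive for the Zfp42-high cells would rest on part of the markers alone. Of the matched Zfp42-high cells, 71 (68.3%) had at least 3 of the 22 primed genes at 100 CPM or more. At least 3 of the 20 naive genes reached that level in 45 (43.3%). The cells are therefore named by Zfp42 alone.

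**Figure D1:**
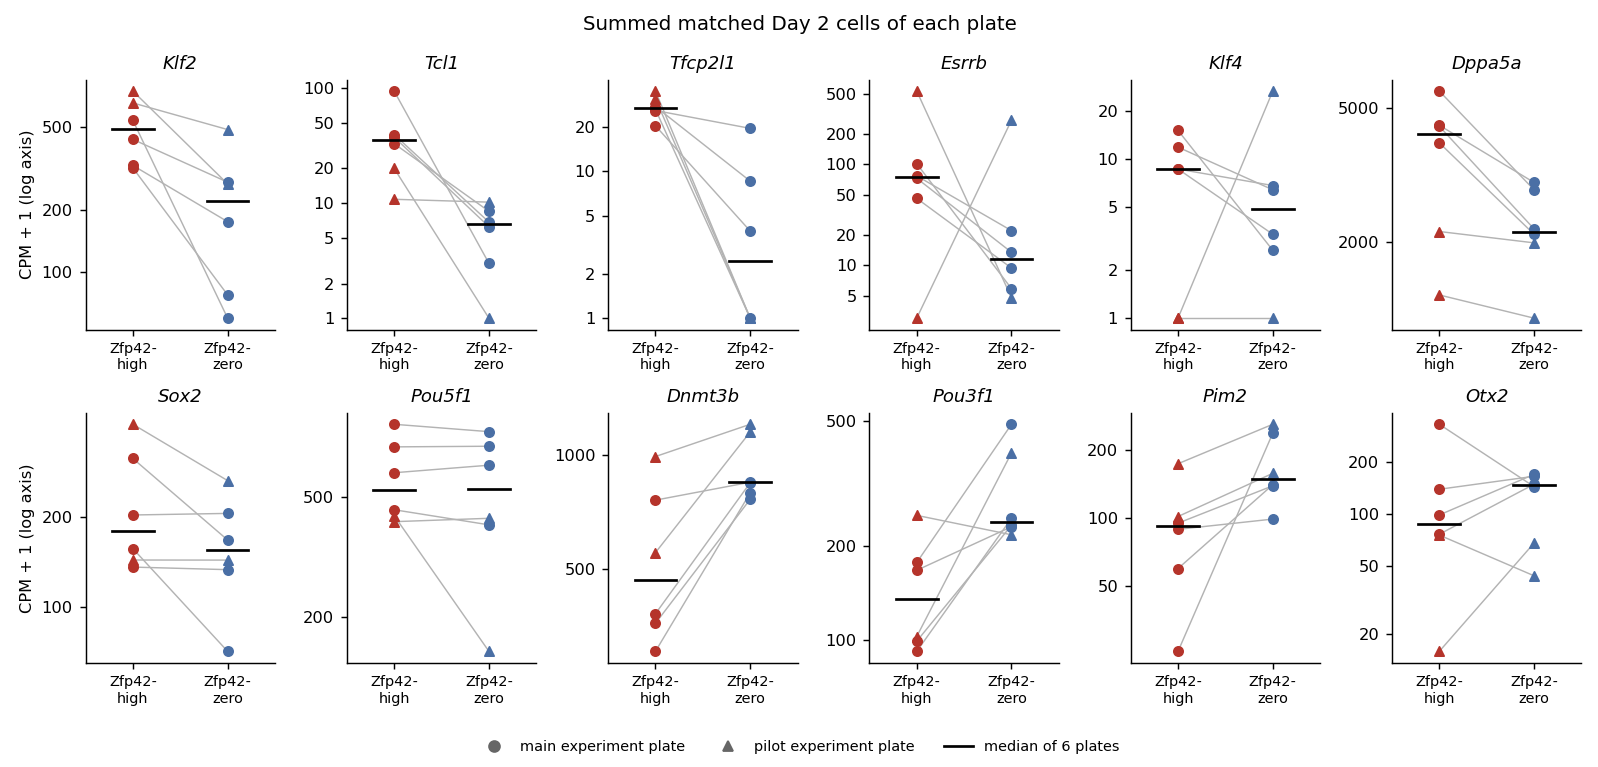
CPM plus 1 on log axes in the summed matched cells of each plate, Zfp42-high on the left and Zfp42-zero on the right of each panel; grey lines join the classes of a plate, circles are main and triangles pilot plates, and black bars are medians of 6 plates. Klf2 and Dppa5a are higher on the Zfp42-high side in all 6 plates and Dnmt3b and Pim2 lower in all 6, while Pou5f1 is higher in 3 plates and lower in 3.

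Genes used in both states leaned to the high side without passing the test. Of 20 such genes, 2 were higher in the Zfp42-high sums of 6 of 6 plates, 9 in at least 5 of 6, and 0 lower in at least 5. Among all genes at a mean of at least 20 CPM, 2.16% were higher in 6 of 6 plates. In at least 5 plates 12.8% of those were higher and 11.8% lower. Dppa5a, an RNA-binding protein of pluripotent cells, had 1395 to 5597 CPM (median 4169) in Zfp42-high sums, against 1191 to 3002 CPM (median 2149) in Zfp42-zero sums. Its log2 difference was 0.63 ± 0.14 (SE, edgeR, unadjusted p = 0.00105, adjusted p = 0.9997). The gap lay in the main experiment, with 4653 CPM in Zfp42-high and 2665 CPM in Zfp42-zero cells, and was small in the pilot experiment, with 1827 and 1618 CPM. With cells with a read counted in place of reads the log2 difference was -0.0081. Of all main Day 2 cells of the classes, 100% of Zfp42-high and 98.5% of Zfp42-zero cells had Dppa5a at 100 CPM or more. In the main experiment a count of cells with a read can therefore hardly separate the classes for this gene. In edgeR on the main experiment alone Dppa5a was the 1 gene called, at an adjusted p of 0.0369.

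Sox2, the partner of Pou5f1 at many pluripotency genes, had 134.9 to 411.8 CPM (median 179.4) in Zfp42-high sums, against 69.6 to 265.3 CPM (median 154.6) in Zfp42-zero sums. It reached 100 CPM in 71 (68.3%) of the matched Zfp42-high cells, against 42 (40.4%) of the Zfp42-zero cells, while its summed level gave a log2 difference of 0.45 ± 0.32 (SE, edgeR, adjusted p = 0.9997). Pou5f1, which encodes Oct4, had 411.97 to 866 CPM (median 524.8) in Zfp42-high sums, against 152.9 to 818 CPM (median 528.2) in Zfp42-zero sums, higher in 3 plates and lower in 3. Its log2 difference was 0.26 ± 0.24 (SE, edgeR, adjusted p = 0.9997), or -0.30 with all cells and genes detected as a covariate, and it reached 100 CPM in 90.4% of Zfp42-high and 81.7% of Zfp42-zero cells.

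Among primed genes, more were lower than higher in Zfp42-high sums across plates. Of 22 primed genes, 0 were higher in the Zfp42-high sums of 6 of 6 plates and 2 were lower in all 6, namely Dnmt3b and Pim2. In at least 5 of 6 plates 1 was higher and 8 were lower, against 12.8% and 11.8% of genes at a mean of at least 20 CPM. Of the 22 genes 16 reached that mean, and among all genes with a read these shares were 6.43% and 6.13%. Of all genes at that mean, 1.93% were lower in all 6 plates. By the mean CPM over plates 9 of the 22 primed genes were higher. Their summed level was 1229 to 2536 CPM (median 1541) in Zfp42-high cells, against 2353 to 2725 CPM (median 2422) in Zfp42-zero cells, lower in 5 of 6 plates, and the median log2 difference of the 20 tested members was -0.56. None passed the edgeR test.

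Dnmt3b, the de novo DNA methyltransferase of the primed epiblast (chr2:153649450-153687730), had 303.6 to 989 CPM (median 467.04) in Zfp42-high sums, against 764 to 1203 CPM (median 846) in Zfp42-zero sums. The Zfp42-high sum was the lower one in every plate, with ranges that overlap across plates. The log2 difference was -0.85 ± 0.21 (SE, edgeR, unadjusted p = 0.00222, adjusted p = 0.9997), and -0.99 to -0.74 when 1 plate was left out. Dnmt3b reached 100 CPM in 60 (57.7%) of the matched Zfp42-high cells and in 77 (74.04%) of the Zfp42-zero cells. Within the experiments it had 477.3 CPM in Zfp42-high and 821 CPM in Zfp42-zero cells of the main one, and 803 and 1178 CPM in those of the pilot one. In the equal-weight fit its log2 difference was -1.36 ± 0.26 (SE, limma, adjusted p = 0.12).

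Pou3f1, a POU factor also called Oct6, had 90.97 to 249.3 CPM (median 133.8) in Zfp42-high sums, against 215.96 to 488.4 CPM (median 237.8) in Zfp42-zero sums, lower in 5 of 6 plates. Its log2 difference was -1.07 ± 0.36 (SE, edgeR, unadjusted p = 0.0138, adjusted p = 0.9997), and it reached 100 CPM in 27 (25.96%) of the matched Zfp42-high cells, against 54 (51.9%) of the Zfp42-zero cells. Pim2, a serine/threonine kinase, had 24.5 to 173.1 CPM (median 90.9) in Zfp42-high sums, against 97.8 to 259.6 CPM (median 148.1) in Zfp42-zero sums. It reached 100 CPM in 15.4% of Zfp42-high and 40.4% of Zfp42-zero cells. Fewer Zfp42-high than Zfp42-zero cells reached that level for both genes.

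Otx2 and Fgf5, which also define the primed state, did not separate the classes. Otx2, a homeobox factor, had 14.8 to 331.9 CPM (median 86.4) in Zfp42-high sums, against 42.6 to 169.1 CPM (median 145.6) in Zfp42-zero sums, and reached 100 CPM in 38.5% of Zfp42-high and 42.3% of Zfp42-zero cells. Fgf5, a growth factor of the primed epiblast, had 0 to 77.2 CPM (median 15.9) in Zfp42-high sums, against 0 to 47.8 CPM (median 21.96) in Zfp42-zero sums, and reached 100 CPM in 4 Zfp42-high and 8 Zfp42-zero cells. Their log2 differences were -0.36 ± 0.54 and -0.69 ± 2.04 (SE, edgeR, adjusted p = 0.9997 for each), errors wide enough for either sign, and they were 0.036 and 0.20 in sums per experiment. Krt18, an epithelial keratin, had 3.09 to 35.9 CPM (median 17.6) in Zfp42-high sums, against 1.39 to 74.8 CPM (median 52.6) in Zfp42-zero sums. Its log2 difference turned to 0.67 with all cells and genes detected as a covariate and to 0.027 in the pilot experiment alone.

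Counted per cell, the classes overlapped. At least 3 of the 20 naive genes reached 100 CPM in 45 (43.3%) of the matched Zfp42-high cells and in 13 (12.5%) of the Zfp42-zero cells, and none did in 14 Zfp42-high and 36 Zfp42-zero cells. At least 3 of the 22 primed genes did so in 71 Zfp42-high (68.3%) and 83 Zfp42-zero cells (79.8%). By plate, a Zfp42-high cell carried a mean of 1.80 to 3.05 naive genes at that level, against 0.667 to 1.40 for a Zfp42-zero cell, with no overlap between the plate means. The plate means of primed genes were 2.33 to 3.82 in Zfp42-high and 2.67 to 6 in Zfp42-zero cells, which overlap.

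Among genes that write or erase DNA methylation, Dnmt3l and Dnmt3b are described. Dnmt3l, the cofactor of the de novo methyltransferases that lacks catalytic activity, had 155.3 to 482.9 CPM (median 331.5) in Zfp42-high sums, against 16.4 to 200.8 CPM (median 149.2) in Zfp42-zero sums. It was higher in 5 of 6 plates, with a log2 difference of 1.60 ± 0.52 (SE, edgeR, unadjusted p = 0.012, adjusted p = 0.9997), and -0.11 with all cells and genes detected as a covariate. It reached 100 CPM in 63.5% of Zfp42-high and 37.5% of Zfp42-zero cells, the opposite order to Dnmt3b. Of the 9 genes that write or erase DNA methylation, Dnmt3l was the 1 higher and Dnmt3b the 1 lower in at least 5 of 6 plates. These shares are near the 12.8% and 11.8% of all genes at a mean of at least 20 CPM, which 6 of the 9 reached. Among all genes with a read the shares were 6.43% and 6.13%.

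Among Polycomb subunits, Jarid2, an accessory subunit of the H3K27 methyltransferase complex, had 145.3 to 323.1 CPM (median 271.4) in Zfp42-high sums, against 68.02 to 230.9 CPM (median 147.9) in Zfp42-zero sums. It was higher in 6 of 6 plates, with a log2 difference of 0.79 ± 0.29 (SE, edgeR, adjusted p = 0.9997). Of the 17 subunits it was the 1 higher in all 6, while 5 were higher and 0 lower in at least 5. Among all genes at a mean of at least 20 CPM, 2.16% were higher in all 6 plates. In at least 5 plates 12.8% of those were higher and 11.8% lower. The 17 subunits summed to 1999.8 to 3188 CPM (median 2333) in Zfp42-high cells, against 1550.3 to 2321 CPM (median 1848) in Zfp42-zero cells, higher in 6 of 6 plates. Suz12, a core subunit, had 114.8 to 1192 CPM in Zfp42-high sums and 60.6 to 411.6 CPM in Zfp42-zero sums, higher in 4 of 6 plates.

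Signalling genes gave smaller counts. FGF and ERK signalling drives cells out of the naive state. Of 18 of its genes, 1 was higher and 4 were lower in the Zfp42-high sums of at least 5 of 6 plates. These shares were 12.8% and 11.8% among all genes at a mean of at least 20 CPM, which 10 of the 18 reached. Among all genes with a read they were 6.43% and 6.13%. Dusp6, a phosphatase induced by ERK, had 0 to 87.02 CPM (median 31.9) in Zfp42-high sums, against 63.5 to 157.9 CPM (median 92.95) in Zfp42-zero sums. Nodal, a TGF-beta family ligand of pluripotent cells, had 91.9 to 243.3 CPM (median 174.9) in Zfp42-high sums, against 0 to 91.7 CPM (median 70.1) in Zfp42-zero sums, without overlap. Its log2 difference was 1.64 ± 1.09 (SE, edgeR, adjusted p = 0.9997) and 1 Zfp42-zero pilot sum had 0 reads of it. It was the 1 of 16 Nodal and BMP genes higher in all 6 plates. This share was 2.16% among genes at a mean of at least 20 CPM, which 7 of the 16 reached, and 0.978% among all genes with a read.

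Cell cycle and metabolism were described by the same counts, to be read against all genes at a mean of at least 20 CPM. Of all genes at that mean, 12.8% were higher and 11.8% lower in at least 5 of 6 plates, and 2.16% were higher in all 6. Of 20 genes of G2 and mitosis, 8 were higher and 0 lower in the Zfp42-high sums of at least 5 of 6 plates, and Birc5, a chromosomal passenger protein, was higher in all 6, at 226.6 to 343.1 CPM (median 281.3), against 77.95 to 319.9 CPM (median 202.5) in Zfp42-zero sums. The log2 difference of Birc5 was -0.0064 with cells with a read counted. Ccnb1, a mitotic cyclin, had 503.5 to 1222 CPM (median 772) in Zfp42-high sums, against 316.7 to 1291 CPM (median 448.8) in Zfp42-zero sums. Of 20 S-phase genes, 0 were higher and 1 lower in at least 5 plates. Of 21 nuclear genes of oxidative phosphorylation 9 were higher and 0 lower in at least 5 plates, 2 of them in all 6, Ndufb5 and Uqcrc1, with a median log2 difference of 0.13. Atp5a1, a subunit of ATP synthase, had 1206 to 3095 CPM (median 1699) in Zfp42-high sums, against 1060.0 to 2618 CPM (median 1523) in Zfp42-zero sums. Of 19 glycolysis genes 1 was higher and 2 lower, and of 20 ribosomal protein genes 3 were higher and 1 lower in at least 5 plates. The part in these counts of the slightly higher reads of the Zfp42-high cells was not tested.

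**Figure D2:**
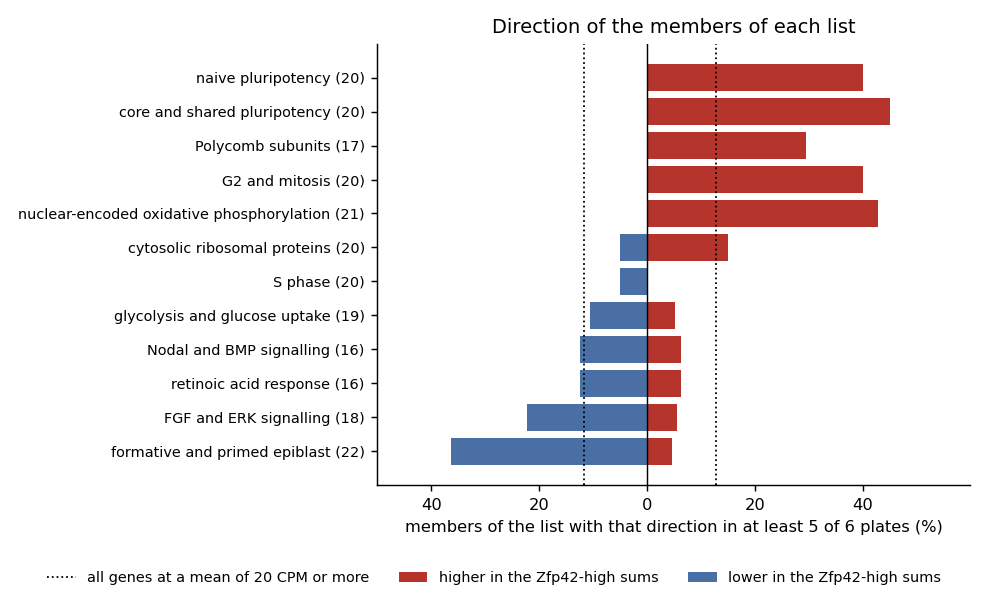
Share of each list's members (their number in brackets) that were higher (red, to the right) or lower (blue, to the left) in the Zfp42-high than in the Zfp42-zero sums of at least 5 of 6 plates. Dotted lines are the shares among all genes at a mean of at least 20 CPM, 12.8% higher and 11.8% lower. List members under that mean are counted too, and among all genes with a read the shares are 6.43% and 6.13%. To the right lie 8 of 20 naive genes and to the left 8 of 22 primed genes.

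Markers of other cell types were read as summed levels. T and Elf5, of mesoderm and trophectoderm, had 0 reads in all sums. The 10 fibroblast and feeder markers summed to 0 to 10.2 CPM in Zfp42-high cells, against 0 to 214.96 CPM in Zfp42-zero cells, and 14 early neural markers to 0.343 to 62.5 CPM and 17.7 to 69.6 CPM. The 16 extraembryonic endoderm markers summed to 243.8 to 547.8 CPM in Zfp42-high cells, against 130.9 to 372.3 CPM in Zfp42-zero cells, higher in 5 of 6 plates. Much of that was Sparc, a matrix protein that pluripotent cells also make, with 160.99 to 377.9 CPM in Zfp42-high sums and 47.3 to 212.96 CPM in Zfp42-zero sums, while Gata6 stayed at or under 4.19 CPM in Zfp42-high and 7.66 CPM in Zfp42-zero sums. The 10 trophectoderm markers summed to 57.6 to 143.1 CPM in Zfp42-high cells, against 0.173 to 66.99 CPM in Zfp42-zero cells, higher in 6 of 6 plates.

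The 1 trophectoderm marker higher in all 6 plates was Tfap2c, an AP-2 transcription factor of trophectoderm and germ cells that naive stem cells also express. It had 25.7 to 142.9 CPM (median 50.1) in Zfp42-high sums, against 0 to 14.002 CPM (median 9.99) in Zfp42-zero sums, without overlap, and reached 100 CPM in 20 Zfp42-high and 5 Zfp42-zero cells. Its log2 difference was 3.24 ± 1.09 (SE, edgeR, adjusted p = 0.9997), and 3.23 in DESeq2 at an adjusted p of 0.0182. Eomes, a T-box factor of mesendoderm and trophoblast, was the 1 of 12 mesendoderm genes higher in all 6 plates. It had 0.199 to 50.1 CPM in Zfp42-high sums, against 0 to 0.182 CPM in Zfp42-zero sums, and 3 Zfp42-high cells reached 100 CPM. Of all genes with a read, 0.978% were higher in all 6 plates.

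The genes with the smallest p in edgeR were mostly outside the lists, and none passed. Higher in Zfp42-high cells were Gabarapl2, an autophagy protein, Dnajb6, a heat shock cochaperone, Dppa5a, Lima1, an actin-binding protein, and Rps3a1, a ribosomal protein gene. Gabarapl2 had 141.2 to 262.2 CPM (median 203.3) in Zfp42-high sums, against 36.9 to 105.4 CPM (median 51.2) in Zfp42-zero sums, a log2 difference of 1.87 ± 0.39 (SE, edgeR, unadjusted p = 0.000726, adjusted p = 0.9997). DESeq2 called it at an adjusted p of 6.97e-05. Dnajb6 had 404.3 to 628 CPM (median 474.1), against 161.6 to 355.5 CPM (median 201.97) in Zfp42-zero sums. Lima1 had 216.3 to 604 CPM (median 277.5), against 56.2 to 200.7 CPM (median 101.2) in Zfp42-zero sums. The ranges of all 3 genes were without overlap, and all 3 were higher in the Zfp42-high sums of both experiments. These genes were picked by their p from the same sums, so both traits are descriptions and add no support. With cells with a read counted in place of reads, the log2 difference was -0.0074 for Dnajb6 and -0.022 for Rps3a1.

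Lower in Zfp42-high cells were Rps12, a ribosomal protein gene, Dnmt3b, Cpped1, a phosphatase, Fam49a and Ogfr, an opioid growth factor receptor. Cpped1 had 0 to 12.7 CPM (median 2.51) in Zfp42-high sums, against 0 to 90.5 CPM (median 55.8) in Zfp42-zero sums, and reached 100 CPM in 0 Zfp42-high and 13 Zfp42-zero cells. DESeq2 called it at an adjusted p of 0.00365. Ogfr had 52.7 to 382.7 CPM (median 89.1) in Zfp42-high sums, against 77.7 to 794 CPM (median 190.1) in Zfp42-zero sums, lower in 6 of 6 plates. Rps12 and Rps3a1 differed by -0.25 ± 0.06 and 0.35 ± 0.09 (SE, log2, edgeR, adjusted p = 0.9997 for each), and both families have near-identical pseudogene copies that the counting could split. Fam49a rested on 4 Zfp42-zero cells at 100 CPM or more.

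Likeness to Zfp42 was also read from the share of cells with a read once each cell was thinned to 10000 reads, over the matched pairs in which both cells had that many. Klf2 came first, with a read in 76 Zfp42-high cells (74.5%) and 41 Zfp42-zero cells (40.2%). Manba, a lysosomal mannosidase, followed with 54 and 20 cells, Tdh, threonine dehydrogenase, with 60 and 29, and Mreg, a melanosome transport protein, with 51 and 20. Fabp3, a fatty acid binding protein, had 69 and 40 cells, Ooep, an oocyte and embryo protein, 74 and 47, Lima1 46 and 20, Sox2 76 and 51, the cytidine deaminase Apobec3 46 and 21, and Dnmt3l 69 and 45. The summed levels of Tdh gave a log2 difference of -0.11 in sums per experiment and -3.48 in the pilot experiment alone, and those of Apobec3 -0.085 with all cells and genes detected as a covariate. After Zfp42 itself these were the 10 genes with the highest difference, and nothing beyond the difference is claimed for them. Mreg had 38.05 to 241.4 CPM (median 179.6) in Zfp42-high sums, against 0.52 to 104.7 CPM (median 35.1) in Zfp42-zero sums, higher in 6 of 6 plates, and its equal-weight log2 difference was 1.42 ± 0.24 (SE, limma, adjusted p = 0.0492).

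The in-between cells show how the values run along the Zfp42 level. In the main experiment the classes by rising Zfp42 were cells at 0 reads, cells under 100 CPM, 52 cells from 100 to under 300 CPM and 38 at 300 CPM or more. Klf2 averaged 177.6, 170.8, 353.5 and 477.9 CPM per cell along these classes. Dnmt3b averaged 727, 872, 423.97 and 353.997 CPM, Pou3f1 251.2, 284.5, 137.4 and 70.1 CPM, and Pim2 108.2, 140.5, 79.6 and 22.99 CPM. The cells with a little Zfp42 thus had values nearer to those of cells without a read than to those of Zfp42-high cells for these 4 genes.

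Esrrb averaged 21.9, 35.97, 69.1 and 80.2 CPM and Sox2 129.8, 152.5, 188.96 and 317.3 CPM along the same classes. The share of cells with Klf2 at 100 CPM or more was 30.4%, 39.7%, 71.2% and 73.7%, and that of Pou3f1 54.1%, 71.3%, 32.7% and 18.4%. The in-between cells also had the most genes detected, a median of 5453, against 3526 at 0 reads, 4432.5 from 100 to under 300 CPM and 4172.5 above, so that for them depth and class move together, and the part of depth was not tested. In the pilot experiment the classes held 52, 4, 7 and 12 cells, too few to read along.

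**Figure D3:**
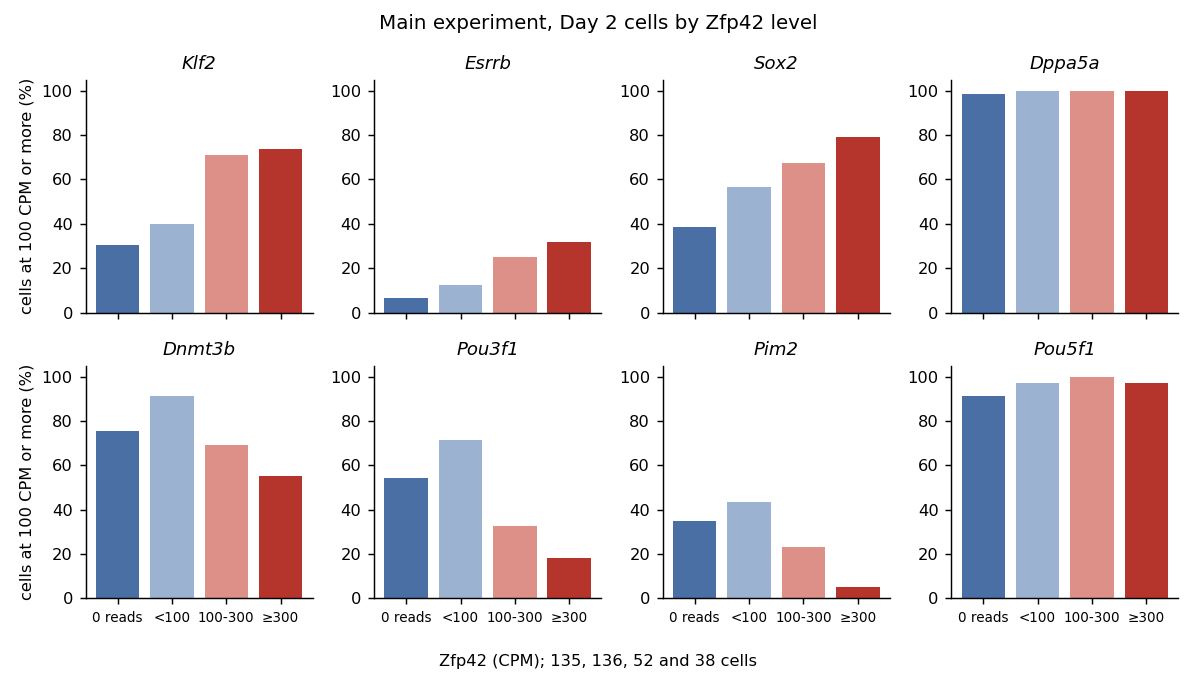
Share of main-experiment Day 2 cells with the named gene at 100 CPM or more, in 4 classes by rising Zfp42 (0 reads, under 100, 100 to under 300 and at least 300 CPM). Klf2 stands at 30.4% and 39.7% in the lower classes and at 71.2% and 73.7% in the upper ones; Pou3f1 stands at 54.1% and 71.3% and at 32.7% and 18.4%.

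Zfp42 and Pim2 are shown with the sequence before their start because both hold a sequence to which POU factors such as Oct4 and Oct6 are known to bind. The octamer ATTTGCAT, or its reverse complement ATGCAAAT, was searched in the 250 bases before the start of RefSeq genes on GRCm38.p6. It lay in 1.60% of 32851 such windows. Of 14 genes looked up, which were chosen among the genes above with their values known, 11 had a window and 2 of these held it, Zfp42 once and Pim2 2 times. Capitals mark the octamers, and the lines run 5′ to 3′ along the gene's strand.
Zfp42, chr8:43307010-43307259, minus strand: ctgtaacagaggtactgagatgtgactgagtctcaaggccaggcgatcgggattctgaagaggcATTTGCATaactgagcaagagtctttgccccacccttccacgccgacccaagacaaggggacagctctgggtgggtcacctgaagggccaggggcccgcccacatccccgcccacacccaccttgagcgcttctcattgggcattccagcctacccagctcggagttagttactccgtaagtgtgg
Pim2, chrX:7878056-7878305, plus strand: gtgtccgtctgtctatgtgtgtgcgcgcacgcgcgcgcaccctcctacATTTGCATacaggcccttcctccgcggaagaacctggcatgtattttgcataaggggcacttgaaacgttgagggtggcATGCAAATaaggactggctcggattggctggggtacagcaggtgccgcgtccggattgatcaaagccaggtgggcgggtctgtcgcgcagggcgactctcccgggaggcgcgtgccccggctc
The Zfp42 octamer begins at base 65 of its window, and the first Pim2 octamer at base 49 of its own. A match is a description of the letters, and says nothing on which factor binds there.

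The Zfp42-high class was mainly a Day 2 class. In the main experiment 24.9% of the kept cells were Zfp42-high on Day 2 (95% Wilson interval 20.7 to 29.6), 6.40% on Day 3 (4.43 to 9.15), 1.76% on Day 4 (0.687 to 4.44), 0.301% on Day 5 (0.0532 to 1.69) and 0.282% on Day 6 (0.0499 to 1.58), the last 2 being 1 cell each. In the pilot experiment the shares from Day 2 to Day 6 were 25.3% of 75 cells (16.9 to 36.2), 7.25% of 69, 3.51% of 57, 2.67% of 75 and 0 of 71, which allows up to 4.23%. Among the Day 6 cells labelled for eGFP, which should lack the gene, 0 cells were Zfp42-high, which allows up to 3.61% of the eGFP+ and 1.06% of the eGFP++ cells of the main experiment and 7.69% of the 39 eGFP++ cells of the pilot experiment. These sets had medians of 1528, 2648 and 2273 genes detected, against 4447 and 1811 in the main and pilot Day 2 cells. The 2 experiments' Day 2 shares of Zfp42-high cells lay within each other's intervals, which cover counting error alone. Their Day 2 shares of Zfp42-zero cells did not. These were 37.4% (32.6 to 42.5) in the main and 69.3% (58.2 to 78.6) in the pilot experiment.

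**Figure D4:**
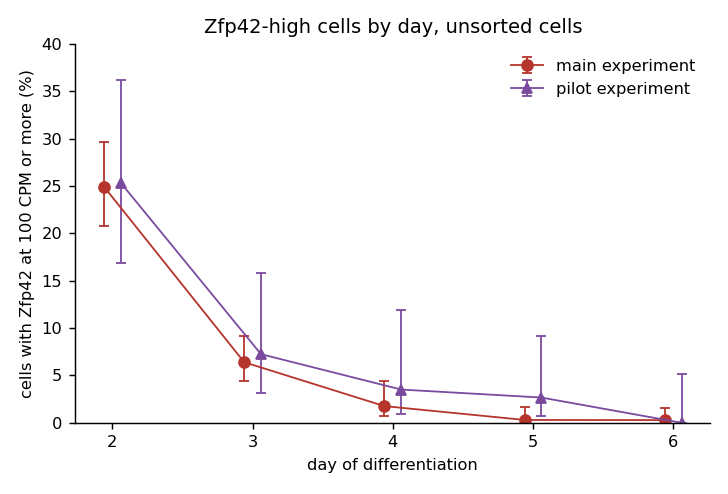
Share of kept unsorted cells with Zfp42 at 100 CPM or more by day, in the main (circles) and pilot (triangles) experiment; bars are 95% Wilson intervals of the share, for counting error alone. The share is 24.9% and 25.3% on Day 2 and at or under 7.25% from Day 3.

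The Day 3 levels of Dnmt3b, Pou3f1 and Klf2 were set against those of Day 2. Dnmt3b stood at 55.04 CPM on Day 3 and 855 CPM on Day 2 of the main experiment, and at 126.8 and 872 CPM in the pilot one. Pou3f1 stood at 13.8 CPM on Day 3 and 297.5 CPM on Day 2 of the main experiment, and at 41.5 and 203.3 CPM in the pilot one. Klf2 stood at 82.97 CPM on Day 3 and 212.2 CPM on Day 2 of the main experiment, and at 150.1 and 374.3 CPM in the pilot one. These are sums over all kept cells of a day, given as values without a test. Each of the 3 genes was lower on Day 3 in both experiments.

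The Zfp42-high cells of Day 3, which were not used above, came to 27 cells of the main experiment (6.40%) and 5 of the pilot one (7.25%), against 72.99% and 89.9% of kept Day 3 cells that were Zfp42-zero. In the main experiment Klf2 had 136.7 CPM in Zfp42-high cells and 74.8 CPM in Zfp42-zero cells of that day, Dppa5a 1688 and 945 CPM, Dnmt3l 65.7 and 14.4 CPM, and Mreg 58.5 and 19.7 CPM. Dnmt3b had 31.7 and 53.8 CPM, Pou3f1 3.15 and 13.1 CPM, and Pim2 3.90 and 13.6 CPM. Esrrb had 1.501 and 1.69 CPM, and Tcl1 0 and 0.1 CPM, close to each other in these pooled cells. Sox2 had 80.9 and 72.6 CPM and Tfcp2l1 6.45 and 2.15 CPM. Jarid2 had 63.8 and 74.5 CPM, lower in the Zfp42-high cells, unlike in the matched Day 2 sums.

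Most of those Day 3 cells also carried Stra8, which retinoic acid induces. It reached 100 CPM in 92.6% of the Zfp42-high and 89.6% of the Zfp42-zero cells of the main experiment. On Day 2 it reached that level in 21.1% of the Zfp42-high and 17.04% of the Zfp42-zero cells of the main experiment. In the pilot experiment Klf2 had 235.2 CPM in the 5 Zfp42-high cells and 143.1 CPM in the Zfp42-zero cells of Day 3, Dppa5a 3261 and 1026 CPM, and Pou3f1 0.137 and 45.1 CPM, while Dnmt3l had 0 and 19.8 CPM. Esrrb had 61.7 CPM in those Zfp42-high cells and 6.49 CPM in the Zfp42-zero cells, and Mreg 0 and 12.2 CPM. Sox2 had 194.6 and 269.7 CPM, Tfcp2l1 0 and 14.9 CPM, and Jarid2 264.9 and 221.9 CPM. Dnmt3l, Mreg, Sox2, Tfcp2l1 and Jarid2 were among the genes that stood the other way round from the main experiment. Dnmt3b had 123.2 and 131.8 CPM. These values come from pooled cells without replicate sums, and they were not tested.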

How the data were processed

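The authors deposited raw read counts per gene and cell, 1 table per plate, without molecular identifiers, so amplification duplicates are part of them. TopHat2 2.1.1, HTSeq 0.6.1 and mm10 are named in the submitters' processing notes, with no roles given there. The tables' columns are unnamed, so cells are known by day, experiment and plate only. Another table, with 40 columns, could be tied to no sample and was left out.

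Each table has 24092 rows. Rows for spike-ins (2.42% of Day 2 reads) and the summary lines of the counting step (37.3%, of which not uniquely aligned 29.2%, no feature 6.08% and ambiguous 2.03%) stayed out of totals and tests. Another 27 genes with names turned into dates in some tables stayed in the totals and out of tests. No source used here gives the strand setting of the counting.

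The classes, the 25 gene lists, the markers and the tests were chosen with earlier results of these data known, and Zfp42 stood in no list or test. Counts of the matched cells were summed per plate and class (12 sums). The main test was edgeR 4.0.16 under R 4.3.3 (quasi-likelihood, genes kept by filterByExpr, TMM factors 0.812 to 1.12, plate and class as terms, 5 residual degrees of freedom, prior count 0.125), two-sided, with Benjamini-Hochberg adjustment over 9023 genes and a threshold of 0.05. The test was checked on simulated sums, with changes put into genes at or above the median count only. At the dispersion estimated from these data it missed most changes of 2-fold, 4-fold and 8-fold. A count of 0 called genes therefore does not show that the classes are alike. Both classes come from the same plates, so plate is the pairing. limma 3.58.1 and DESeq2 1.42.0 served as alternatives; the limma fit and the pilot experiment alone were added after the values were seen.

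Genes named are the markers, the 5 with the smallest p in each direction since none was called, up to 3 members of each list, and the 10 with the highest difference in the share of thinned cells with a read. Klf5, Dppa3, Birc5, Ndufb5, Uqcrc1 and the Day 3 genes were chosen after their values were seen. Levels are CPM of summed reads, weighted by each cell's reads, and are compared within a gene only. Counts of cells at 100 CPM or more describe cells, which are not replicates. Intervals are 95% Wilson intervals, and a count of 0 allows 3 counts; both cover counting error only.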

Additional observations from a re-analysis of the deposited data

Results flagged for a closer look

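The difference between the classes was itself compared between the 2 experiments. In edgeR with a class by experiment term, 43 of 9023 genes (0.477%) had an adjusted p under 0.05, and 2261 had an unadjusted p under 0.05. Of the 43 genes, 19 had 0 reads in both pilot sums of 1 class. None of the markers or list members was among them, and the smallest adjusted p of a marker was 0.0623, for Klf4.

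In 88 groups of 6 sums (44 genes, 2 classes), 14 sums lay far from the other 5 on the log2(CPM + 1) scale, past a 95% critical value, which by its definition chance passes in about 1 in 20 groups of equally variable sums. All but 1 of the 14 were sums of the pilot experiment, which hold 9 or 10 cells, fewer than the 16 to 24 of the main sums. Among Zfp42-high sums, Ooep had 88.1 CPM in pilot plate 1 (390.9 to 563 in the others), Dusp6 0 in pilot plate 1 (27.1 to 87.02), Tdh 1.60 in pilot plate 2 (149.99 to 327.1), Dppa3 0.343 in pilot plate 2 (43.4 to 118.3), and Fam49a 1.88 in main plate 1 (0 in the others). Among Zfp42-zero sums of pilot plate 1, Ooep had 7.27 CPM (122.3 to 506.5 in the others), Krt18 1.39 (44.2 to 74.8) and Tfap2c 0 (6.27 to 14.002). Among those of pilot plate 2, Fgf5 had 0 (16.9 to 47.8), Cpped1 0 (24.5 to 90.5), Apobec3 0 (23.9 to 101.6), Nodal 0 (59.9 to 91.7), Dppa3 0.15 (13.4 to 47.2) and Ndufb5 2.11 (89.1 to 211.3).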

How the results depend on the processing

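The count of called genes was 0 in edgeR and stayed 0 under upper quartile scaling, no filter, all cells with or without genes detected as a covariate, thinned cells, counts of cells with a read, sums per experiment, no replicate block for plate (0), thresholds of 50 and 200 CPM, all cells under 100 CPM, cells with at least 1000 genes, and each plate left out in turn (0 to 0). It was 8 in DESeq2, 1 with the main experiment alone, 10 with the pilot experiment alone and 2 in limma on mean log2 CPM. The class by experiment term had an adjusted p under 0.05 in 0.477% of tested genes, in 0.397% without a filter and in 2.03% with all cells, not matched. The log2 ratio of genes detected was 0.21 with means over cells (exact permutation p = 0.03125), and 0.10 to 0.21 with 1 plate left out. That of the spike-in share was -0.41 to -0.23 with 1 plate left out. The cause of these shifts was not tested.

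Of 935 log2 differences of 44 named genes under alternatives, 906 had the sign and the side of the threshold given above, 7 passed it and 22 turned sign, in 14 genes. With all cells and genes detected as a covariate, Esrrb was -1.09, Klf4 -0.46, Pou5f1 -0.30, Dnmt3l -0.11, Apobec3 -0.085 and Krt18 0.67. With cells with a read counted, Dppa5a was -0.0081, Dnajb6 -0.0074, Rps3a1 -0.022 and Birc5 -0.0064. For Dppa5a nearly every main cell of both classes had a read, so this setting can hardly separate them there. In sums per experiment, Klf4 was -3.38, Otx2 0.036, Fgf5 0.20 and Tdh -0.11. In the pilot experiment alone, Nanog was 0.0008, Fgf5 0.25, Tdh -3.48 and Krt18 0.027. Klf4 was -0.028 with no replicate block and -0.45 with Zfp42-high cells taken from 50 CPM. With 1 plate left out Klf4 ran from -0.018 (without main plate 2) to 1.45, and Fgf5 from -1.57 to 0.17 (without pilot plate 1).

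Klf4, Nanog, Tcl1, Tfcp2l1, Fgf5, Fam49a and Eomes reached 100 CPM in at most 17 matched cells of a class, so their sums rest on few cells; whether depth or low expression sets this was not tested. The 2 experiments are the study's biological replicates. With 1 sum per class from each, the fit with experiment and class as terms had 1 residual degree of freedom. No gene was called in it, an outcome nearly fixed beforehand by so few sums. The count given above for sums per experiment therefore decides nothing about the biological replicates.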
